A study of Mus musculus with 24 samples.

Results

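MEF2C binding was set against the heterochromatin mark H3K9me3 in mouse fibroblasts at day 1 of cardiac reprogramming. The regions compared were all peaks on chromosomes 1 to 19 and X in 4 of the 16 peak lists of the series, 2 lists for MEF2C with 42698 peaks in all and 2 for H3K9me3 with 113860. The cells were the iMGT-Myh6-eGFP-MEF line, mouse embryonic fibroblasts with a doxycycline-inducible Mef2c, Gata4 and Tbx5 combination (MGT) and an eGFP reporter of Myh6, a gene of cardiac muscle. They were plated at 300000 per well, transfected with siControl, and given 1 µg/mL doxycycline on the following day. They were harvested and frozen on day 1 of the induction, and each condition had about 250000 cells. All 4 libraries thus came from cultures of this reporter line given doxycycline and a control siRNA. Induction and siRNA uptake in each cell were not measured here. MEF2C in these libraries was the induced protein together with any made from the cells' own gene, and the files do not separate them. RNA was not analysed here, so the fibroblast identity of the line was not checked against marker transcripts.

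MEF2C is a MADS-box transcription factor of muscle and heart that binds an A- and T-rich sequence. H3K9me3, trimethylation of lysine 9 of histone H3, is written by enzymes such as SUV39H1 and SETDB1 and read by HP1 proteins, and it marks compact chromatin over repeats, zinc finger gene clusters and silenced gene families. Such domains are known from work on reprogramming as stretches that factors open late or poorly. CUT&RUN, the assay used, releases DNA around an antibody-bound protein with a tethered nuclease, and the peak caller SEACR reports each stretch of signal with its summed and its maximum signal. Each antibody was applied to its own cells, so MEF2C and H3K9me3 on the same copy of a region cannot be told apart from MEF2C in some cells and H3K9me3 in others.

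The lists differed in length and width. MEF2C replicate 1 held 14912 peaks over 15.5 Mb with a median width of 943 bp, and replicate 2 held 27786 peaks over 63.2 Mb with a median of 1981 bp. H3K9me3 replicate 1 held 69311 peaks over 109 Mb, or 4.14% of the sequence, with a median width of 1153 bp. H3K9me3 replicate 2 held fewer peaks, 44549, but over 363 Mb or 13.8% of the sequence, with a median of 4790 bp and a widest peak of 528 kb. Peaks of at least 5 kb made up 13.6% of the H3K9me3 sequence in replicate 1 and 77.1% in replicate 2, so the first list is a list of short segments and the second a list of domains. In replicate 1 of MEF2C 83.2% of the peaks overlapped a peak of replicate 2, and 40.7% held in the other direction. For H3K9me3 those shares were 85.6% and 59.1%. With 2 libraries per antibody an exact permutation test over libraries cannot give a p below 1 in 3, and peaks are not replicates, so the comparisons are given for each pair of lists without a p-value.

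MEF2C peaks lay on H3K9me3 less often than the same peaks moved round their chromosomes. In MEF2C replicate 1, 3.34% of peaks had at least 1 bp on H3K9me3 replicate 1, against a mean of 7.32% over all circular shifts, and 5.11% lay on H3K9me3 replicate 2, against 16.7%. In MEF2C replicate 2 the share on H3K9me3 replicate 1 was 4.05%, against 9.59% for the shifts. On H3K9me3 replicate 2 it was 6.55%, against 18.4%. The observed share was therefore 0.456, 0.306, 0.422 and 0.355 of the shift mean, with a mean of 0.385 ± 0.0671 (SD over the 4 pairs, which share lists). The lowest of 200 evenly spaced shifts gave 6.14%, 11.8%, 7.63% and 13.1% in the 4 pairs, above the observed share in each. Counted by base pairs in place of peaks, the observed share was 0.373 ± 0.101 of the shift mean (SD over the same 4 pairs).

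**Figure D1:**
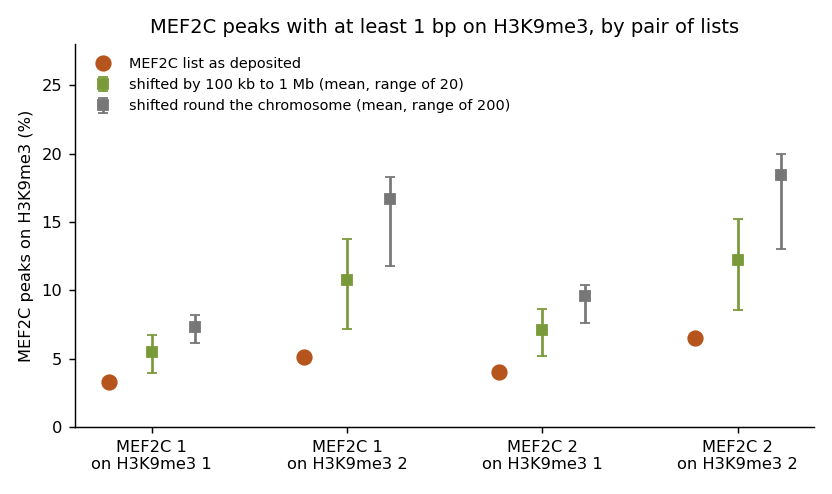
Share of MEF2C peaks with at least 1 bp on H3K9me3 (y axis, percent) for the 4 pairs of lists (x axis). Circles are the lists as deposited, between 3.34% and 6.55%, and squares with bars are the mean and range of shifted lists, which lie above the circle in every pair for short and for long shifts.

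A shift round a whole chromosome also carries peaks into gene-poor stretches and the unsequenced chromosome starts, so the peaks were also moved by only 100 kb to 1 Mb in either direction, a choice made after seeing the data. The mean of these 20 shifts was 5.49%, 10.8%, 7.14% and 12.2% in the same order of pairs. Against them the observed share was 0.609, 0.475, 0.567 and 0.536 of the mean, 0.547 ± 0.0562 (SD over the 4 pairs), and the observed share lay below each of the 20 shifts in every pair. The gap was therefore smaller beside sequence of the same neighbourhood than beside the whole chromosome, and it had the same direction.

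All 20 chromosomes had the same direction. Regions found in both MEF2C lists lay on H3K9me3 replicate 1 at 0.166 (chromosome 7) to 0.747 (chromosome 19) of the shift mean, with a median of 0.350. On H3K9me3 replicate 2 the range was 0.159 (chromosome 14) to 0.445 (chromosome 2), with a median of 0.313. Chromosome 5 held the most H3K9me3, at 9.67% and 23.9% of its sequence in the 2 lists, and also the most MEF2C regions per length, 6.86 per Mb. Its ratios were 0.270 and 0.310.

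The strength of a MEF2C peak, taken as the rank of its maximum signal within its own list, did not order the overlap in one direction. Each list was divided into 10 classes of equal size by this rank. By 1 bp of overlap, all 10 in each pair lay below the whole-chromosome shift mean of the same peaks. By midpoint 9 did so for MEF2C replicate 2 on H3K9me3 replicate 1, where the weakest 10% stood at 1.15. Shifts of at most 1 Mb were not run by class. On H3K9me3 replicate 1 the weakest 10% had shares of 5.97% and 8.89%, above the 5.49% and 7.14% of those shifts for all peaks. In MEF2C replicate 1 the strongest 10% lay on H3K9me3 replicate 1 at 0.437 and the weakest at 0.808 of the shift mean, and on H3K9me3 replicate 2 at 0.372 and 0.500. In MEF2C replicate 2 the strongest and the weakest 10% stood at 0.420 and 0.813 on H3K9me3 replicate 1, and at 0.400 and 0.605 on replicate 2. The lowest ratios, 0.274, 0.204, 0.288 and 0.240 in the same order of pairs, came in classes 8, 3, 7 and 4 counted from the weakest, between the ends. After the shift mean of each class was subtracted, the difference of the strongest 10% minus the weakest 10% was -3.34, -2.70, -4.41 and -3.94 percentage points.

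The ratios at the ends of the ranking differed most in wide H3K9me3 peaks. In H3K9me3 peaks of at least 5 kb, midpoints of the strongest 10% stood at 0.0987, 0.137, 0.166 and 0.135 of the shift mean in the 4 pairs. Midpoints of the weakest 10% stood at 1.02, 0.399, 2.67 and 0.496 there. The 2 values above 1 came from H3K9me3 replicate 1, where few peaks are that wide, and rest on 0.670% of 1492 and 2.12% of 2779 MEF2C peaks. In narrower H3K9me3 peaks the strongest 10% stood at 0.525, 0.792, 0.372 and 0.683, and the weakest at 0.967, 0.805, 0.882 and 1.00. Midpoints of the strongest 10% inside H3K9me3 were mostly in narrower peaks in the 4 pairs, and wide peaks held relatively more of the weak ones. On H3K9me3 replicate 1 the weakest 10% were also mostly in narrower peaks, 3.89% and 3.96% against 0.670% and 2.12% in wide ones. On H3K9me3 replicate 2 those shares were 2.68% and 3.42% against 4.62% and 6.26%.

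**Figure D2:**
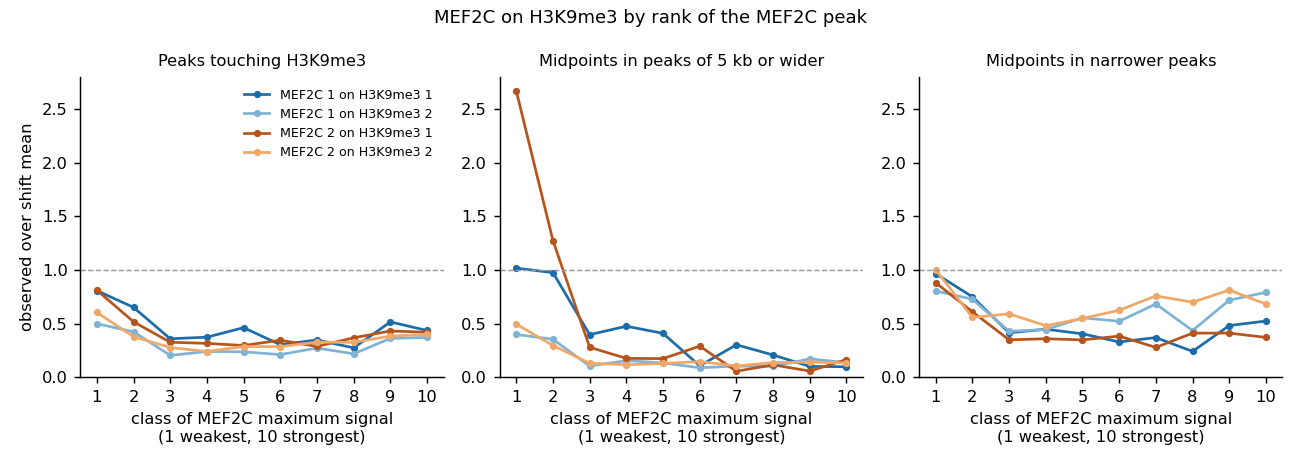
Observed over shift mean (y axis) by class of MEF2C maximum signal (x axis, 10 classes from 1, weakest, to 10, strongest) for the 4 pairs of lists: peaks touching H3K9me3 (left), midpoints in H3K9me3 peaks of at least 5 kb (middle) and midpoints in narrower ones (right). The left panel stays below 1 (dashed) in every class, and in the middle panel the strongest 10% lies between 0.0987 and 0.166 while the weakest lies between 0.399 and 2.67.

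Weak peaks were also the ones that the other MEF2C library did not hold. Of the strongest 10% of replicate 1, 98.9% overlapped a peak of replicate 2, and of the weakest 10% 50.3%. In replicate 2 those shares were 97.5% and 5.22%. MEF2C replicate 1 peaks found in both MEF2C lists lay on H3K9me3 replicate 1 at 2.51%, or 0.345 of the shift mean, and those found in it alone at 7.43%, or 0.994. On H3K9me3 replicate 2 these ratios were 0.264 for peaks found in both and 0.506 for peaks found in 1 list. For replicate 2 of MEF2C they were 0.356 against 0.471 on H3K9me3 replicate 1, and 0.315 against 0.384 on replicate 2. In all 4 pairs the peaks that both MEF2C lists held were on H3K9me3 less often, relative to their shifts, than those of 1 list.

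Outside H3K9me3, MEF2C midpoints lay below the whole-chromosome shift mean next to a domain and above it at middle distances. Within 1 kb outside an edge, midpoints stood at 0.420, 0.647, 0.384 and 0.597 of the shift mean in the 4 pairs. From 20 to 50 kb they stood at 1.18, 1.27, 1.18 and 1.27, and from 50 to 100 kb at 1.21, 1.26, 1.24 and 1.26. Beyond 500 kb the ratio was 0.0862, 0.0720, 0.0839 and 0.0635, a class that takes in the chromosome starts, where no list has peaks. The ratio thus climbed over the first 10 to 20 kb outside an edge in every pair, to above 1. The classes divide all peaks of a list, so a deficit inside H3K9me3 or beyond 500 kb raises the ratio elsewhere. Whether MEF2C favours middle distances was not tested.

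The median distance of outside midpoints from the nearest edge was 38.0 kb for MEF2C replicate 1 and 39.2 kb for replicate 2 with H3K9me3 replicate 1, against shift medians of 32.9 and 33.2 kb. With H3K9me3 replicate 2 it was 32.3 and 32.7 kb, against 31.2 and 31.4 kb. Against replicate 1 of H3K9me3 no shift of 200 reached the observed median, while against replicate 2 there were 21 and 12 that did. Shifts of at most 1 Mb gave means of 37.0 and 37.4 kb with H3K9me3 replicate 1 and 32.9 and 33.0 kb with replicate 2, and in each pair the observed median lay within the range of these 20 shifts. With the stronger 50% of each H3K9me3 list as the domains, the mean log2 ratio of observed to shift median over the 4 pairs was -0.12 ± 0.19, against 0.14 ± 0.10 (SD over pairs) with all H3K9me3 peaks, so its direction turned.

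**Figure D3:**
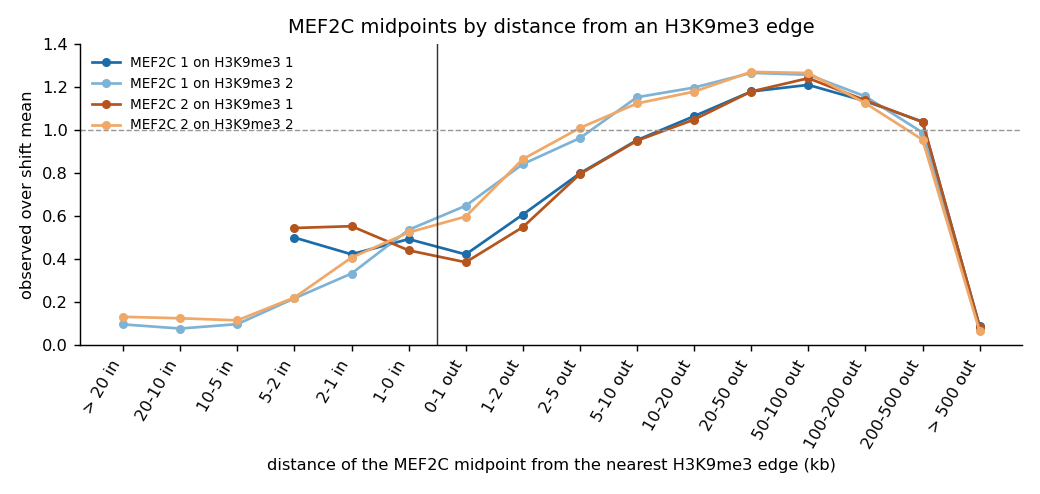
MEF2C midpoints over their shift mean (y axis) by distance from the nearest H3K9me3 edge in kb (x axis, inside a domain left of the vertical line, outside right of it) for the 4 pairs of lists, without classes of fewer than 20 midpoints in the shift mean. The ratio lies at 0.0752 to 0.130 deeper than 5 kb inside the domains of H3K9me3 replicate 2, passes 1 between 2 and 20 kb outside, and reaches 1.18 to 1.27 from 20 to 100 kb.

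Inside H3K9me3 the 2 lists of the mark gave different pictures. In the domains of H3K9me3 replicate 2 MEF2C midpoints were shallow in bp. Their median depth from the nearest edge was 1141 and 1193 bp, against 2548 and 2525 bp for the shifts. The H3K9me3 peaks that held them had median widths of 5073 and 4950 bp. As a share of the distance from edge to middle of the H3K9me3 peak, depth differed little from the shifts. Its median was 0.459 and 0.484, against 0.501 and 0.500. The first lay below its shift range of 0.466 to 0.539, and the second within its range of 0.479 to 0.525. The ratio of midpoints to the shift mean was 0.535 and 0.522 in the outermost 1 kb. It was 0.0956 and 0.113 at a depth of 5 to 10 kb, 0.0752 and 0.123 at 10 to 20 kb, and 0.0945 and 0.130 deeper still. In the short segments of H3K9me3 replicate 1 the median depth was 446.5 and 486 bp, against 412 and 410 bp for the shifts. The first lay within the shift range of 366 to 479 bp, and the second above its range of 373 to 451 bp. As a share of the distance from edge to middle, the medians were 0.598 and 0.561, against 0.502 and 0.500. The shifts reached at most 0.560 and 0.536, so by this measure midpoints were slightly deeper than shifted ones. The change of direction between the 2 lists went with their peak widths, whose part in it was not tested.

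The MEF2C content of an H3K9me3 peak was lower in wide than in narrow peaks of replicate 2 and showed no such order in replicate 1. In H3K9me3 replicate 2, midpoints of MEF2C replicates 1 and 2 stood at 2.53 and 1.98 of the shift mean in peaks of 1 to 2 kb, and at 0.569 and 0.649 in peaks of 2 to 5 kb. They stood at 0.308 in both in peaks of 5 to 10 kb, and at 0.191 and 0.155 in peaks of 10 to 20 kb. Peaks of 20 to 50 kb had ratios of 0.0731 and 0.128, and wider ones 0.0899 and 0.123. The narrow peaks that held MEF2C above the shift mean were few. There were 734 of 1 to 2 kb, of which 26 and 57 held a MEF2C peak, and 32 of under 1 kb, of which 6 and 7 did, with ratios of 46.4 and 29.2. In H3K9me3 replicate 1 the ratio stayed between 0.361 and 0.615 in all classes below 10 kb. Its 181 peaks of 10 to 20 kb stood at 0.663 and 1.25, from 11 and 38 midpoints. Its 9 peaks of 20 to 50 kb held 0 and 5 midpoints and the 1 wider peak 1 and 5, too few to place.

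The strongest H3K9me3 peaks kept the most MEF2C. In the strongest 10% of H3K9me3 replicate 1, by maximum signal, MEF2C midpoints stood at 0.813 and 0.770 of the shift mean for MEF2C replicates 1 and 2, and in the weakest 10% at 0.405 and 0.238. In H3K9me3 replicate 2 they stood at 0.620 and 0.807 in the strongest 10% and at 0.0670 and 0.0586 in the weakest. There the share of H3K9me3 peaks with a MEF2C peak of replicate 2 was 10.5% in the strongest 10%, against 10.5% for the shifts, and 0.404% in the weakest, against 6.68%. The strongest 10% was wider too, with a median of 6138 bp against 4503 bp in the weakest; widths in between did not follow the rank in order, and their part in the ratio was not tested. How uniquely reads could be placed in these peaks was not tested.

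**Figure D4:**
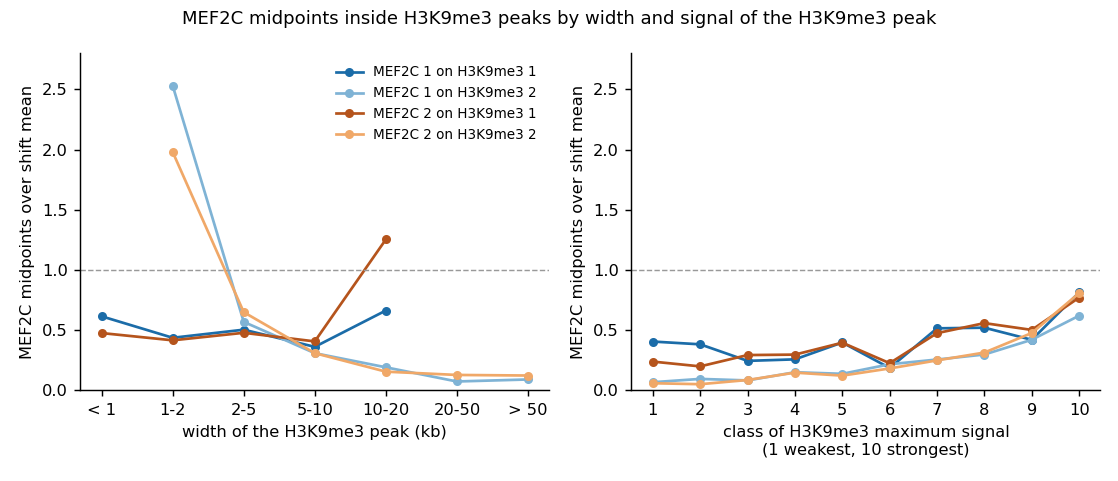
MEF2C midpoints inside H3K9me3 peaks over their shift mean (y axes) by width of the H3K9me3 peak in kb (left, classes of at least 100 peaks) and by class of its maximum signal (right, 10 classes from 1, weakest, to 10, strongest) for the 4 pairs of lists. With H3K9me3 replicate 2 the ratio falls to between 0.0731 and 0.128 in peaks wider than 20 kb, and in the right panel all 4 lines are highest in the strongest 10%, at 0.620 to 0.813.

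Regions that all 4 lists held give the overlap that did not rest on 1 library. Merging both MEF2C lists gave 30272 regions, and 11286 of them held peaks of both. Of these, 337 (2.99%) had at least 1 bp on H3K9me3 in both lists, against a mean of 1033 and a range of 806 to 1157 over 200 shifts, a ratio of 0.326. With at least 50% of the width on H3K9me3 in both, 119 remained, against a shift mean of 415, a ratio of 0.287. Neither H3K9me3 list touched 10532 regions (93.3%). By MEF2C percentile, the strongest 10% of the 11286 regions had 44 regions (3.90%) on both H3K9me3 lists and the weakest 40 (3.54%), but with at least 50% of the width on H3K9me3 there were 7 (0.620%) in the strongest and 29 (2.57%) in the weakest.

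The 337 regions lay away from genes compared with the 10532. A RefSeq transcription start lay under 36 of 329 of them (10.9%) and under 2136 of 10184 regions on neither list (21.0%), counted on the chromosomes with promoter entries. Within 5 kb of a gene end there were 15.4% of the regions on H3K9me3 and 32.1% of the others, and within a gene 39.8% and 67.7%. The median MEF2C percentile of the 337 regions was 73.4, against 65.8 for the 10532, and they were wider, at a median of 2523 bp against 2238 bp. For the 119 regions with at least 50% of their width on H3K9me3 the median percentile was 60.5, so the direction depended on the overlap rule. The H3K9me3 peaks of the 337 had median percentiles of 78.9 and 83.7 in the 2 H3K9me3 lists. The rule that both lists touch a region itself favours strong peaks. Of the strongest 10% of H3K9me3 replicate 2, 91.6% overlapped a peak of replicate 1, and of the weakest 10% 16.3%. In replicate 1 those shares were 96.8% and 71.5%. No percentile of shared H3K9me3 peaks in general was set beside these medians, so they are not read as a trait of the 337.

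The same regions were mostly already under H3K9me3 in cells that had not been reprogrammed. The 2 ground-state H3K9me3 lists held 55.5% and 85.5% of the 337 regions, against 0.256% and 2.73% of the 10532. Ground-state cells are labelled with neither MGT induction nor siRNA treatment, so the effects of these 2 treatments cannot be told apart. The 3 MEF2C lists under siJunb, siRNA against the AP-1 factor JUNB, held 59.1%, 81.6% and 70.0% of the 337 regions, against 51.8%, 77.0% and 63.2% of the 10532. Under siH1f0, siRNA against the linker histone H1.0, the 3 lists held 84.0%, 91.1% and 76.9%, against 91.2%, 97.5% and 72.3%. The direction depended on the overlap rule. Of the 119 regions with at least 50% of their width on H3K9me3, the siJunb lists held 47.1%, 70.6% and 54.6% and the siH1f0 lists 72.3%, 82.4% and 72.3%, in each list at or below the share of the 10532. The day 1 lists of H1.0 held 88.4% and 18.1% of the 337 regions, against 92.9% and 11.1% of the 10532, so both sets followed the large difference between those 2 lists.

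**Figure D5:**
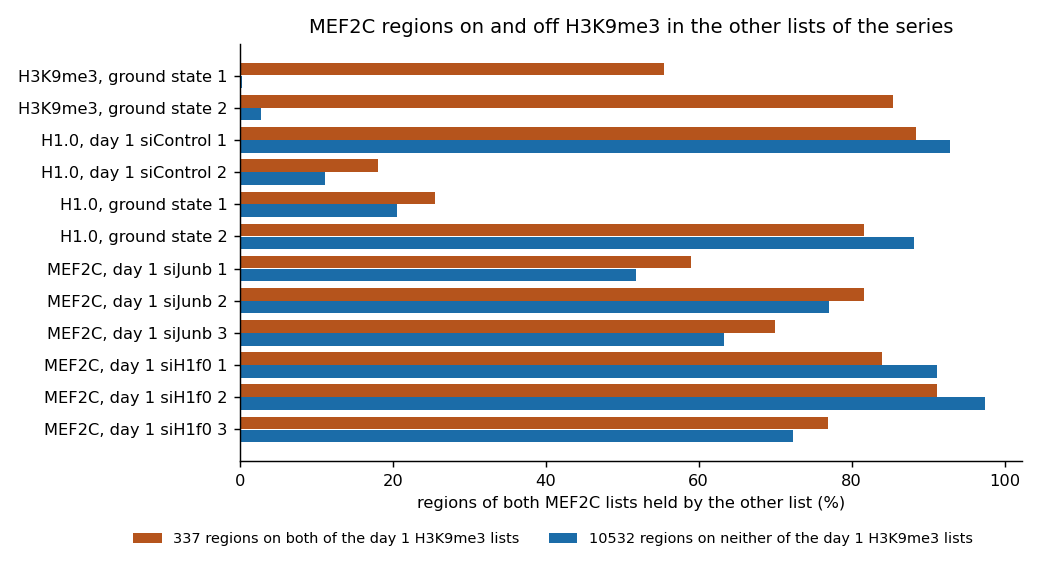
Share (x axis, percent) of the regions of both MEF2C lists that the other 12 lists of the series held (y axis), for regions on both day 1 H3K9me3 lists (upper bar of each pair) and on neither (lower bar). The pairs of bars part widely in the ground-state H3K9me3 lists, at 55.5% against 0.256% and 85.5% against 2.73%, and lie close together in the H1.0 and MEF2C lists.

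Few transcription starts were under both proteins' peaks. Of 32619 RefSeq promoters, 3139 had their start under both MEF2C lists and 647 under both H3K9me3 lists, and 9 had both. The product of the 2 shares would give 62.3. The 4 with the strongest MEF2C are printed from RefSeq (GRCm38.p6) to show what sequence sat under both marks, each from 250 bases before to 50 after the start and in the direction of the gene. Capitals mark matches on either strand to the MEF2 site, the AP-1 site TGANTCA, the GATA-factor site GATAA or the CArG box, the site of the serum response factor.

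Atf3, chr1:191183284-191183583, minus strand: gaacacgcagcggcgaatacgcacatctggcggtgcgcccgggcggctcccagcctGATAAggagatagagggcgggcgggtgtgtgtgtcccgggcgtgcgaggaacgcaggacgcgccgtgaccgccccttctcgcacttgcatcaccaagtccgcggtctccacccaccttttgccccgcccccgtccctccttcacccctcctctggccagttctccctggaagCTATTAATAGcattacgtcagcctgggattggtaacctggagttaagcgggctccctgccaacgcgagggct
Mtf2, chr5:108077915-108078214, plus strand: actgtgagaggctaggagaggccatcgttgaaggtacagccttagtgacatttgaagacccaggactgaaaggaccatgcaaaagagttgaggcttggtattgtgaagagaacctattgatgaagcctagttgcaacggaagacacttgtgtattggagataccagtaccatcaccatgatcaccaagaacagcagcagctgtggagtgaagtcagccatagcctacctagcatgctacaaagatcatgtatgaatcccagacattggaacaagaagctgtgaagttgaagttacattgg
Gm34732, chr1:185085924-185086223, minus strand: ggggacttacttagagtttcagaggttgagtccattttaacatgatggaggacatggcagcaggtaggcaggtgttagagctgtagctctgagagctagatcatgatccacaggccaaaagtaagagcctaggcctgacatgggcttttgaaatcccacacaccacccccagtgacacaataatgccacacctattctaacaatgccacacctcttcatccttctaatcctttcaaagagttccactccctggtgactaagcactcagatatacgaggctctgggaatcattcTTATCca
4930413E15Rik, chr5:118952089-118952388, plus strand: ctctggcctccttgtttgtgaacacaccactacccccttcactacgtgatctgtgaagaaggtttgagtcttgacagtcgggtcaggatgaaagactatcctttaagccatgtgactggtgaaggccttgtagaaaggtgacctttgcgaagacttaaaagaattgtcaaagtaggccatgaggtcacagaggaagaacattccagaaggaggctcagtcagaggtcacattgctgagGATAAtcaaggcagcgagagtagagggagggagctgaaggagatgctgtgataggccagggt

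The Atf3 promoter was the 1 of the 9 with a MEF2 site, shown as its longer run of capitals. Such a site occurred in 3.11% of all promoters and in 3.31% of the 3111 with a start under both MEF2C lists and neither H3K9me3 list. It occurred in 2.19% of the 638 with a start under both H3K9me3 lists and no region of both MEF2C lists. A peak of 1 MEF2C list did not exclude a start from the 638. The AP-1 site occurred in 7.85% of all promoters, 6.69% of the 3111 and 9.56% of the 638. GATAA occurred in 25.4%, 16.1% and 36.4% of the same sets. A match in these letters is a description and not a bound site. The other 5 of the 9 starts belonged to Aig1, Hspa1b, which encodes an inducible HSP70 chaperone, the nuclear body gene Sp110, and 2 long noncoding RNAs, Gm36876 and 8430423G03Rik.

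At Atf3, which encodes a stress-induced bZIP factor that pairs with AP-1 proteins, the MEF2C region chr1:191181243-191184317 had a maximum signal of 23 in MEF2C replicate 1 and 62 in replicate 2. H3K9me3 covered 39.9% of it in replicate 1 and 36.0% in replicate 2, with maxima of 12 and 51, and its midpoint lay 0.312 and 0.432 kb outside the edge. Both ground-state H3K9me3 lists and all 6 MEF2C knockdown lists held this region. At Mtf2, which encodes a Polycomb-associated protein, the maximum MEF2C signal was 10 and 54, and H3K9me3 covered 37.1% and 92.1% of the region, with maxima of 8 and 34. Peak maxima rank peaks within a list and are not scaled between lists.

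Among the 119 regions with at least 50% of their width on H3K9me3, the 15 strongest for MEF2C had maximum signals of 15 to 45 in MEF2C replicate 1 and 55 to 218 in replicate 2. The strongest lay at chr2:35992564-35998329, 12.7 kb from Ttll11, which encodes a tubulin polyglutamylase. Its MEF2C maxima were 39 and 218, at percentiles 98.3 and 99.4 of the 2 lists, and its H3K9me3 maxima 21 and 86 over 55.6% and 74.1% of its width. The next lay within Dtd1, the gene of a D-aminoacyl-tRNA deacylase, at chr2:144667414-144673564, with MEF2C maxima of 45 and 124 and H3K9me3 maxima of 13 and 70. Both regions were in every one of the 6 MEF2C knockdown lists and in both ground-state H3K9me3 lists.

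The others were nearest to Diras2, a Ras-family GTPase, the vomeronasal receptor Vmn1r43, the secretory kinase Fam20c, the microtubule plus-end protein Slain2, Rasl11b, Fam174a, Sh3bp4, the death-domain adaptor Cradd, Fbxl17, the cullin adaptor Klhl22, Parp16, the ER-phagy receptor Retreg1 and the bestrophin Best3. Only 5 of the 15 lay within a protein-coding gene, and 1 covered a transcription start. The H3K9me3 peaks of replicate 2 that held them had a median width of 5493 bp, and 13 of the 15 regions were in both ground-state H3K9me3 lists. The region nearest to Fam174a, chr1:95451857-95452340, differed from the rest. It was 484 bp wide, had the highest H3K9me3 maxima of the 15, 26 and 152, and occurred in 1 of the 6 MEF2C knockdown lists, whereas 11 of the 15 occurred in all 6.

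The 10 regions farthest from an H3K9me3 edge had MEF2C maxima of 3 to 13 in replicate 1 and 8 to 64 in replicate 2. Their percentiles ran from 3.82 to 77.4 with a median of 37.0, and those nearest to Fam160b1 (77.4) and Akr1d1 (66.8) lay above 66.2, the median over all regions of both lists. Depth was taken as the lesser of the depths in the 2 H3K9me3 lists. By that measure the deepest, chr13:12852842-12861343, lay 52.7 kb from Prl2c3 of the prolactin family, 6.34 and 7.84 kb inside the 2 lists' H3K9me3 peaks. Its MEF2C maxima were 10 and 13, and its H3K9me3 maxima 22 and 157. A second region on that chromosome, nearest to Prl2c2, had MEF2C maxima of 6 and 11. The region nearest to Smok2a, a sperm motility kinase gene, lay 38.3 kb inside an 82822 bp domain of H3K9me3 replicate 2, with MEF2C maxima of 3 and 9. The region nearest to the vomeronasal receptor Vmn2r129 had maxima of 5 and 8. These 4 genes belong to multi-copy families, where reads can be shared between copies. The regions lay 0.637 to 63.8 kb from these genes, and how uniquely reads could be placed in the regions was not tested. The other 6 regions were nearest to Gm2001, Nelfa, Pgm5, Rnf216, Akr1d1 and Fam160b1, whose copy numbers were not examined. None of the 10 regions was in all 6 MEF2C knockdown lists.

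There were 1348 regions of both MEF2C lists with no H3K9me3 within 100 kb in either list. They are named as examples, chosen for their MEF2C signal, and their levels are not a comparison with the regions on the mark. The strongest, chr10:116259888-116262653 within the protein tyrosine phosphatase gene Ptprr, had maxima of 118 and 604 and lay 105 and 104 kb from the nearest H3K9me3. The next 4 lay within Uba7, the activating enzyme of ISG15, the chromatin remodelling subunit gene Arid1b, the deubiquitinase gene Usp28 and the microtubule-binding gene Clip1, at 149 to 210 kb from an edge. Their MEF2C maxima were 61 to 76 in replicate 1 and 267 to 412 in replicate 2. All 5 were in each of the 6 MEF2C knockdown lists, and none was in a ground-state H3K9me3 list.

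Among protein-coding genes, 27.5% of 21627 had a region of both MEF2C lists within 5 kb. Of the 329 genes (1.52%) with at least 50% of the body on H3K9me3 in both lists, 18 (5.47%) had one. Of the 15992 genes free of H3K9me3, 4101 (25.6%) did, and of the 3494 genes partly under it, 1378 (39.4%) did. These classes differed in gene length, with medians of 2.09 kb, 13.5 kb and 79.4 kb in that order, and a longer gene offers more sequence for a peak. The 18 genes included 6 of the Zfp zinc finger genes (Zfp146, Zfp68, Zfp600, Zfp873, Zfp960 and Zfp982) and the heat shock gene Hspa2. They also included the nuclear body genes Sp110 and Sp140, which overlap and share 1 MEF2C region. Of the 18, only Gm13212, Gm39469, Sp110, Sp140 and Zfp982 had a MEF2C region that itself lay on H3K9me3 in both lists.

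A MEF2C region on H3K9me3 in both lists lay within 5 kb of 161 genes, or 0.744% of all. In the list of cardiac transcription factors and natriuretic peptides, 7 of 21 genes (33.3%) had MEF2C, against 27.5% of all genes, and 1 had it on H3K9me3. This was Ankrd1, which encodes a stress-responsive cardiac cofactor. Its region chr19:36118801-36121642 had MEF2C maxima of 27 and 129 and H3K9me3 maxima of 16 and 64. H3K9me3 covered 0.880% of this region in replicate 1 and 41.5% in replicate 2, and the gene body itself carried none in either list. Among sarcomere and contractile genes 13 of 30 (43.3%) had MEF2C, and among calcium handling and ion channel genes 8 of 17 (47.1%), none on H3K9me3. At 0.744% of all genes, lists of this size would hold few or none on H3K9me3. Of the ion channel and calcium genes 8 of 17 (47.1%) had some H3K9me3 in the body in both lists, against 17.7% of all protein-coding genes (3823 of 21627). Among them was Slc8a1, the cardiac sodium-calcium exchanger gene, with 36.0% and 99.0% of its body under the mark in the 2 lists. A longer body offers more sequence for the mark. Genes partly under it had a median length of 79.4 kb, against 13.5 kb for genes free of it, and length was not taken into account in this contrast.

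Fibroblast and extracellular matrix genes had MEF2C in 15 of 27 (55.6%), against 27.5% of all genes, and on H3K9me3 in none. The AP-1 family had MEF2C in 11 of 16 (68.8%), with Atf3 alone on H3K9me3. Genes of the H3K9 methylation machinery had MEF2C in 11 of 21 (52.4%) and on H3K9me3 in none. Regulators of other lineages had MEF2C in 2 of 28 (7.14%), below the share over all genes. They had no gene body covered to 50% by H3K9me3, against 1.52% of all genes. At that share a list of 28 would hold few or none, so this is not read as a trait of the list. Imprinted genes had some H3K9me3 in the body in both lists in 15 of 24 (62.5%), against 17.7% of all genes, with gene length not taken into account. They had MEF2C in 8 (33.3%), against 27.5% of all genes, with Impact alone on H3K9me3. Of 15 housekeeping genes 10 (66.7%) had MEF2C, and the lysosomal enzyme gene Gusb had it on H3K9me3. Its region chr5:130002085-130006533 had MEF2C maxima of 15 and 81 and H3K9me3 maxima of 19 and 80. Hox genes had MEF2C in 10 of 39 (25.6%), clustered protocadherins in 21 of 57 (36.8%) and ribosomal protein genes in 27 of 101 (26.7%), none on H3K9me3. Over all genes 27.5% had MEF2C and 0.744% had it on H3K9me3. At 0.744%, lists of this size would hold few or none on H3K9me3, so such counts are not read as a trait of the lists.

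The zinc finger and receptor gene families were described by the same counts. Of 400 zinc finger genes 33 (8.25%) had at least 50% of the body under the mark in both lists, against 1.52% of all genes, and 97 (24.3%) had MEF2C, against 27.5% of all. In 3 of them, Zfp942, Zfp961 and Zfp982, it lay on H3K9me3. At Zfp982 the region had MEF2C maxima of 5 and 14, lay 84.6 kb inside a 360 kb domain of H3K9me3 replicate 2, and had H3K9me3 maxima of 26 and 152. Olfactory receptor genes had the mark over at least 50% of the body in 84 of 1110 (7.57%) and MEF2C in 9 (0.811%), and vomeronasal receptor genes in 11 of 355 (3.10%) and 3 (0.845%). Any H3K9me3 in the body in both lists was found in 169 of the zinc finger genes (42.3%), against 17.7% of all genes, and in 141 of the olfactory (12.7%) and 62 of the vomeronasal genes (17.5%). The receptor families were thus not above all genes by this measure. The measures depend on gene length, which was not taken into account for these families. Genes covered to at least 50% in both lists had a median length of 2.09 kb, and genes partly covered 79.4 kb. A longer gene also offers more sequence for a MEF2C peak.

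Some of the widest H3K9me3 domains carried no MEF2C peak at all. In H3K9me3 replicate 2 these were a domain of 421 kb on chromosome 2 with no protein-coding gene, 2 domains of 403 and 306 kb at the cadherin gene Cdh13, one of 307 kb at Slc8a1 and one of 305 kb at Tmem132d. The widest domain with MEF2C, 528 kb over the Cyp3a cytochrome P450 genes on chromosome 5, held 1 peak of MEF2C replicate 1 and 10 of replicate 2, with maxima of 5 and 11. The next widest with MEF2C lay at Tmem132b (393 kb), over the Speer4a family (363 kb), over Zfp982 and its neighbours (360 kb) and at Sdk1 (332 kb), and their MEF2C maxima were at most 13 in replicate 1 and 18 in replicate 2. In H3K9me3 replicate 1 the widest peak, 57.9 kb, lay within the span of that Cyp3a domain but over no protein-coding gene, with 1 and 5 MEF2C peaks.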

How the data were processed

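Per the labels, 30 M reads were made per sample, and per the submitters' processing notes they were processed with Bowtie2 and SEACR on mm10; versions, the number aligned, duplicate handling and the use of the IgG samples are not given in the sources used here. The deposited lists hold signal, that is each peak's total coverage and its maximum, with no scaling to depth seen in the values. With the aligned depth unknown, precision was judged from the spread over lists. The 8 IgG samples were not analysed here. The samples are labelled biological replicates, and what was repeated is not stated.

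Each MEF2C list was set against each H3K9me3 list (Python 3.11.15, numpy 2.4.6, pandas 2.3.3). A peak was on H3K9me3 with at least 1 bp of overlap, and its distance was measured from its midpoint to the nearest edge. The shift mean is exact over all circular shifts within chromosomes, and ranges and medians come from 200 evenly spaced shifts. Chromosome ends were taken as the last base reached by any list or RefSeq gene (2632 Mb in all), since no genome sequence was used here. Shift calculations were tested on simulated data. Coordinates are 1-based. Gene positions came from RefSeq on GRCm38.p6, the assembly of mm10, which gave no exons.

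The MEF2C regions named are the 15 strongest by mean percentile of maximum signal with at least 50% of their width on H3K9me3 in both lists, the 10 farthest from an edge, the 5 strongest with no H3K9me3 within 100 kb, and members of 15 gene lists with a region on H3K9me3. The widest H3K9me3 peaks named are the first 5 of each list with and without MEF2C, and of those of replicate 1 only the first is given. The comparison, lists and rules were chosen with earlier results of these data known, and shares by presence in the other MEF2C list and shifts of at most 1 Mb were added after seeing the data. Alternatives were the overlap rule, stitching or filtering of peaks, ranking, single lists, same-numbered pairs and the range of shifts.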

Additional observations from a re-analysis of the deposited data

How the results depend on the processing

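Values below are means over pairs of lists. The log2 ratio of the share on H3K9me3 to the shifts was -1.40 ± 0.26 (SD, 4 pairs) and stayed negative in all 15 alternatives. It was -1.74 with H3K9me3 peaks of at least 5 kb, -1.07 with the upper 50% of H3K9me3, -0.95 at equal covered length and -0.88 with shifts of at most 1 Mb. Without each list in turn it ran from -1.60 to -1.19. Strongest 10% minus weakest 10% was -3.60 points. It was -2.37 with H3K9me3 peaks of at least 5 kb, -2.74 without the top 1% of signal, -0.26 within the upper 50% of MEF2C peaks, where the weakest peaks are left out by construction, and -4.18 to -3.02 without each list. The log2 ratio of outside distance was 0.14. It turned to -0.12 with the upper 50% of H3K9me3, was 0.017 with shifts of at most 1 Mb, and ran from 0.053 to 0.22 without each list. The log2 ratio of depth in bp was -0.47. It was -1.88 with H3K9me3 stitched over gaps of 5 kb, and ran from -1.12 without H3K9me3 replicate 1 to 0.18 without H3K9me3 replicate 2; the cause was not tested. The 337 regions held by all 4 lists were 134 by midpoint, 119 by 50% of width, 21 with H3K9me3 peaks of at least 5 kb and 214 with the upper 50% of MEF2C. They were 359 to 948 when 1 list was left out, the highest without MEF2C replicate 1, since fewer lists had to hold them. Their log2 ratio to the shifts, -1.62, was -2.22, -1.33 and -1.16 with H3K9me3 peaks of at least 5 kb, its upper 50% and shifts of at most 1 Mb, and -1.66 to -1.33 without each list. Genes with MEF2C on H3K9me3 numbered 283 within 20 kb, against 161 within 5 kb. Labels do not say that equal replicate numbers share a culture. In the replicate block of same-numbered pairs of lists the 4 measures were -1.31, -3.64, 0.13 and -0.48, close to the values over all pairs. The short MEF2C replicate 1 and the narrow H3K9me3 replicate 1 limit how many shared regions can be seen.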
